A study of Mus musculus with 4 samples.

Results

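The Sprouty genes Spry1, Spry2 and Spry4, the Spred genes Spred1, Spred2 and Spred3, and Dusp6 encode inhibitors that act back on receptor tyrosine kinase signalling. Open chromatin at these 7 genes was examined by ATAC-seq, which reads out DNA that a transposase can reach, in mouse G1ER erythroblasts with and without Chd7, a chromatin remodelling enzyme. Peaks of 4 libraries were merged into 15328 regions wherever they overlapped or touched, and a region was assigned to a gene if it lay in the gene's span or had that gene's end as its nearest protein-coding gene end within 100 kb. By this rule 9 regions belonged to the 7 genes, 3 each at Spry1, Spred1 and Spred2, and 0 at Spry2, Spry4, Spred3 and Dusp6. The genes were selected on the peak calls themselves, because calls exclusive to a genotype fell at Spred1 in the knockout and at Spred2 and Spry1 in wild type. Those calls are therefore given as a description and carry no test.

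G1ER cells derive from a Gata1-null line and carry GATA1 fused to the ligand-binding domain of the estrogen receptor, and the labels list no treatment. The series compared accessibility with and without Chd7, and its title also names the transcription factor Runx1. There were 2 libraries of Chd7-/- G1ER cells and 2 of wild-type G1ER cells, with 50000 cells each. The time label is 1 h for replicate 1 and 2 h for replicate 2 in both genotypes. The protocol gives a transposase step of 1 to 2 h, and the labels do not state whether this is the time meant. All cells were maintained with erythropoietin at 2 U/mL and SCF-conditioned medium at 0.6%. Erythropoietin binds a cytokine receptor, and stem cell factor (SCF) binds the receptor tyrosine kinase Kit. A single code, E9, stands in the descriptions of both Chd7-/- libraries, so genotype and clone cannot be told apart, and nothing in the labels states that replicates were separate cultures.

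Ligand binding to a receptor tyrosine kinase such as Kit recruits adaptors and exchange factors that load Ras with GTP, and Ras then activates the kinases RAF, MEK and ERK. Sprouty proteins restrain this route between the receptor and RAF, and their genes are commonly switched on by the signal itself. Spred proteins bring neurofibromin, the Ras GTPase-activating protein encoded by Nf1, to the membrane, and Dusp6 is a phosphatase that inactivates ERK in the cytoplasm. Erythropoietin and stem cell factor both feed into this pathway in erythroid progenitors.

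The lists held 12443 and 11376 nuclear peaks in Chd7-/- replicates 1 and 2, and 11084 and 12043 in wild-type replicates 1 and 2. How many reads lay behind each list is unknown. The median pileup, the number of fragments that cover a peak's summit as recovered from the deposited values, was between 19 and 22 fragments in the 4 libraries. The lowest background behind a peak, which scales with depth if reads were extended alike, was 1.036 and 1.011 fragments in the Chd7-/- libraries and 0.787 and 1.077 in the wild-type libraries, so wild-type replicate 1 stood lowest. Of 10 erythroblast marker genes, 7 had a region, among them Gata1, Klf1, Epor, Tfrc and Alas2 with a region called in all 4 libraries, while Slc4a1, Hba-a1 and Hbb-b1 had 0 regions by the same rule. Of 12 markers of other blood cells, 5 had a region.

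The promoters of the 3 genes with peaks are shown with that of Dusp6, which had none, to set the called bases beside a start site of the family that was not called. Each sequence runs from 250 bases before to 50 bases from the start site onward (RefSeq, GRCm38.p6, plus strand), and capitals mark the bases inside the called peak of every library that called the region.
Spry1, chr3:37639697-37639996: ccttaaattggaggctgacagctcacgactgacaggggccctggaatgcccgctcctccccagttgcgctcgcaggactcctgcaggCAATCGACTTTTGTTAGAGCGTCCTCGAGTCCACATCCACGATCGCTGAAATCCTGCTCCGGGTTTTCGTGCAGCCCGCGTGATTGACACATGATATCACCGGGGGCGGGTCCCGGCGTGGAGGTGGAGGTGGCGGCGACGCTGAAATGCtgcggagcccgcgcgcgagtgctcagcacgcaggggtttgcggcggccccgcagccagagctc
Spred1, chr2:117120821-117121120: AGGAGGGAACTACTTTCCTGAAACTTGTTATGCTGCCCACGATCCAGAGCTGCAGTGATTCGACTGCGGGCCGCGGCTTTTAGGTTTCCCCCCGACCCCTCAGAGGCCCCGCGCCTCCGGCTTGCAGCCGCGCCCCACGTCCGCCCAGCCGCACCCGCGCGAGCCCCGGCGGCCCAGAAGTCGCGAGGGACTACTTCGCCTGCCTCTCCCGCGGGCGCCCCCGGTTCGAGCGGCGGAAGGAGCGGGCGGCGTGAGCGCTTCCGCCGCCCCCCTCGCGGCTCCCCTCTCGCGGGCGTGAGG
Spred2, chr11:19924192-19924491: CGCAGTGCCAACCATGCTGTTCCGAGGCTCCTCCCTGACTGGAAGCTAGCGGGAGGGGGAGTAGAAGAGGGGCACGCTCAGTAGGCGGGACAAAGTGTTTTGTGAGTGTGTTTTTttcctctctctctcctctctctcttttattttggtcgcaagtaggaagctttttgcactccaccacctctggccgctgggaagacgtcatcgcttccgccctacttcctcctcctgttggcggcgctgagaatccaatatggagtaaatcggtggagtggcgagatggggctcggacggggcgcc
Dusp6, chr10:99262981-99263280: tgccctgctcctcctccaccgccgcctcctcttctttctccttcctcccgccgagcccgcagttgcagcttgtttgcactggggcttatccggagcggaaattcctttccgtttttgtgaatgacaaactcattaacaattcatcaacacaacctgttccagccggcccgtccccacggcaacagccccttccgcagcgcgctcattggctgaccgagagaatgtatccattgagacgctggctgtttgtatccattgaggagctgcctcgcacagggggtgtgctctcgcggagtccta
At Spred1 the peaks of all 4 libraries covered the whole window of 300 bases. The shared stretch at Spry1 spanned 150 bases from −163 to −14, and at Spred2 it stopped at −136, where the peak of Chd7-/- replicate 2 ended.

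These windows differed in base composition. The G and C content was 64.3% at Spry1, 72.3% at Spred1 and 57.0% at Spred2, with 29, 40 and 17 CpG dinucleotides. Among the genes without a peak it was 62.7% at Spry2, 55.0% at Spred3 and 57.3% at Dusp6, with 28, 8 and 19 CpG. Over the 32851 promoter windows of the table the median was 52.7% with 7 CpG. Windows that overlapped a region (27.1% of all) had a median of 62.7% and 24 CpG, against 49.7% and 4 CpG for windows that overlapped none. The Spry2 window had 28 CpG, against 29 at Spry1, and no call in any library.

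Motif letters were searched on both strands of the 6 member windows in the table. GATAA, the core bound by GATA factors, was matched once at Spred3 and once at Dusp6, as TTATC at −76 to −72 and at −165 to −161. The ETS core CCGGAA was matched once at Spry2, at 33 to 38. There were 0 matches to TGTGGT, the letters bound by RUNX factors, and 0 to the E-box CACGTG in any of the 6 windows, and Spry1, Spred1 and Spred2 matched none of the 4 motifs. Of all windows, 25.4% held GATAA, 14.9% CCGGAA, 16.8% TGTGGT and 7.15% CACGTG. Among windows that overlapped a region the shares were 14.1%, 35.9%, 11.3% and 11.7%. No match overlapped another.

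**Figure D1:**
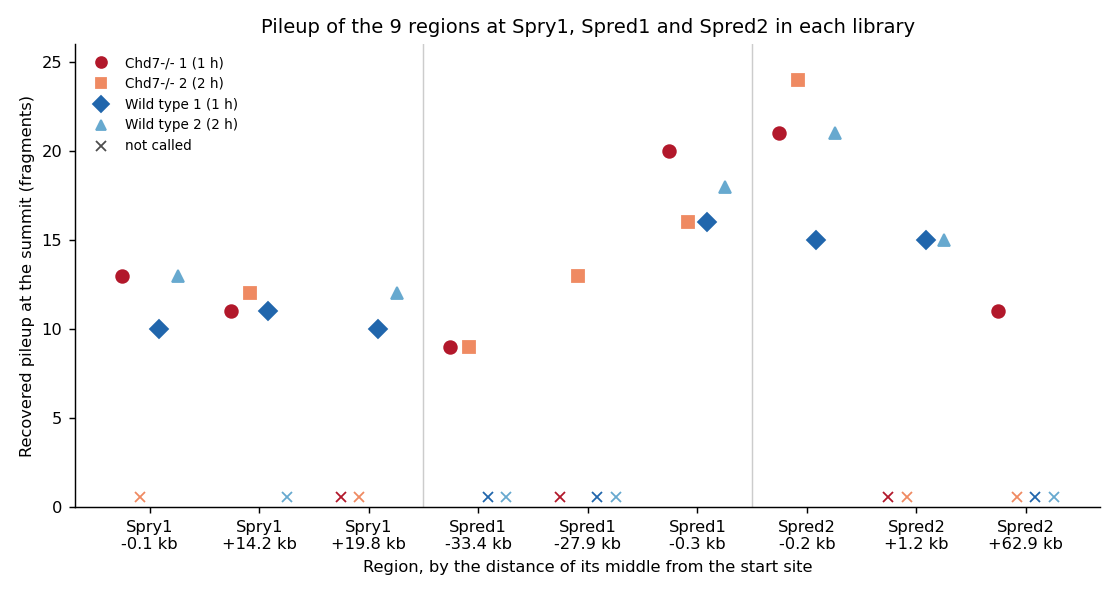
Recovered pileup at the summit, in fragments, of the 9 regions at Spry1, Spred1 and Spred2, in each of the 4 libraries. Crosses near the axis mark libraries without a call. The promoter regions of Spred1 and Spred2 have calls in all 4 libraries, at 15 to 24 fragments, and the other 7 regions lie between 9 and 15 fragments where called.

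Spry1 encodes a Sprouty protein on chromosome 3 (37639947 to 37644599, plus strand). The promoter region, chr3:37639694-37640020, had a pileup of 13 fragments in Chd7-/- replicate 1 and no call in Chd7-/- replicate 2, against 10 and 13 fragments in wild-type replicates 1 and 2. Fold enrichments of pileup over local background, the authors' own values at the peak, were 6.88 in the Chd7-/- library and 5.73 and 6.19 in the wild-type libraries. The summits of the 3 peaks lay within 33 bp of each other, from −136 to −103 bp relative to the start site. The call was missing in 1 library of 4, and the Chd7-/- pileup equalled the higher wild-type pileup.

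A second Spry1 region lay 14.2 kb downstream of the start site, at chr3:37654010-37654229. Its pileups were 11 and 12 fragments in Chd7-/- replicates 1 and 2, against 11 fragments in wild-type replicate 1 and no call in wild-type replicate 2. Levels in the 3 calling libraries were within 1 fragment. The third Spry1 region, 19.8 kb downstream at chr3:37659608-37659863, was called in neither Chd7-/- library and in both wild-type libraries, with 10 and 12 fragments and −log10 q values of 6.03 and 6.80, where q is the peak caller's adjusted p within its list. Its 2 peaks had summits 25 bp apart, and the shorter peak of 200 bp lay wholly inside the longer. Spry1 therefore had 2 and 1 called regions in Chd7-/- replicates 1 and 2, against 3 and 2 in wild-type replicates 1 and 2.

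Spred1, which encodes a Spred protein that carries a Kit-binding domain, spans 61209 bp on chromosome 2 (117121071 to 117182279, plus strand). Its promoter region, chr2:117120282-117121240, was called in all 4 libraries and was the widest of the 9 at 959 bp. Pileups were 20 and 16 fragments in Chd7-/- replicates 1 and 2, against 16 and 18 fragments in wild-type replicates 1 and 2. The groups overlapped. The width came from wild-type replicate 2, whose peak reached from −789 to 169 bp around the start site, while the other 3 peaks were 547 to 600 bp wide and began between −491 and −440 bp.

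Upstream of Spred1, a region at chr2:117087586-117087800, with its middle 33378 bp before the start site, was called in both Chd7-/- libraries, with 9 fragments in each, and in neither wild-type library. It was a weak region. Its −log10 q was 3.92 and 3.94, its peaks were 200 and 202 bp wide where the lists hold none under 200 bp, and its fold enrichment ranked at percentiles 12.5 and 10.7 of its lists. Of the 415 regions with this pattern of calls, 4.10% had a lower mean pileup. A further region at chr2:117093011-117093275, 27928 bp before the start site, was called in Chd7-/- replicate 2 alone, with 13 fragments.

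Spred2, the paralogue that also carries a Kit-binding domain, spans 99585 bp on chromosome 11 (19924442 to 20024026, plus strand). The promoter region, chr11:19923970-19924520, was called in all 4 libraries, with 21 and 24 fragments in Chd7-/- replicates 1 and 2 and 15 and 21 fragments in wild-type replicates 1 and 2. Both Chd7-/- values were at or above the higher wild-type value. Fold enrichments ranked at percentiles 40.1 and 48.7 in the Chd7-/- lists and at 5.05 and 12.3 in the wild-type lists. The highest of these, 48.7, was the highest rank of any of the 9 regions in any list. Fold enrichment also depends on the local background. That background was 2.26 and 2.38 fragments in Chd7-/- replicates 1 and 2, and 2.44 and 3.30 in wild-type replicates 1 and 2. The peak in Chd7-/- replicate 2 was 337 bp wide and ended at −136 bp, and the other 3 were 505 to 517 bp wide and crossed it.

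Inside the gene, 813 bp downstream of that region, chr11:19925334-19925890 was called in neither Chd7-/- library and in both wild-type libraries, with 15 fragments in each. The wild-type peaks coincided poorly. In wild-type replicate 1 the peak reached from 1201 to 1448 bp after the start site, and in wild-type replicate 2 from 892 to 1233 bp, so they shared 33 bp, or 13.3% of the shorter peak, and their summits were 311 bp apart. Among the 345 regions of this pattern the median share was 94.4% of the shorter peak, and 6 had a share of 20% or less. When peaks were joined only where windows of 75 bp either side of their summits met, a setting chosen after seeing the data, this Spred2 region no longer had the pattern. The last Spred2 region, chr11:19987180-19987405, 62.9 kb into the gene, was called in Chd7-/- replicate 1 alone, with 11 fragments.

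**Figure D2:**
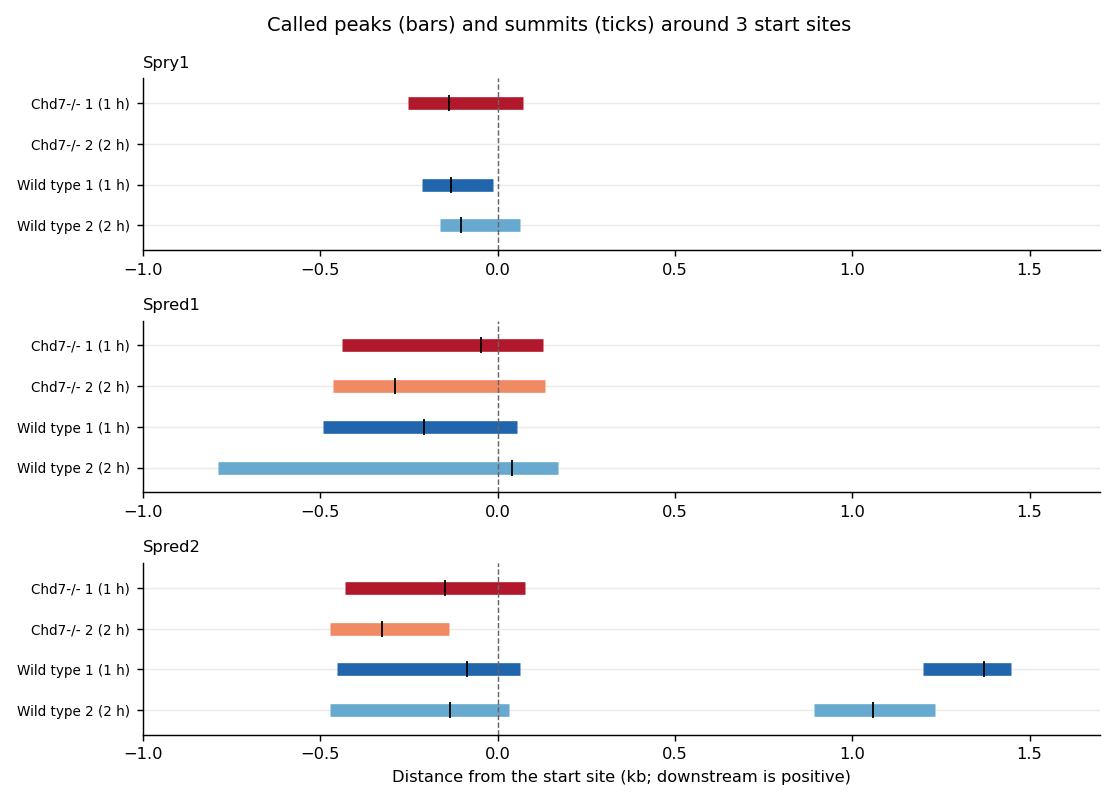
Called peaks (bars) with summits (ticks) around the start sites of Spry1, Spred1 and Spred2, in kb from the start site, for the 4 libraries. Chd7-/- replicate 2 has no bar at Spry1, and the 2 wild-type peaks downstream of the Spred2 start site overlap by 33 bp.

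The genes without a region differed in their surroundings. Spry2, on chromosome 14 (105891947 to 105896819), had 0 regions within 200 kb, and the nearest region lay 603 kb away and was called in 1 library. Spry4, on chromosome 18 (38586247 to 38601347), had its nearest region 75.7 kb away, assigned to Ndfip1 and called in 1 library. The nearest region to Dusp6, on chromosome 10 (99263231 to 99267489), was 64.8 kb away, assigned to Poc1b and called in 3 libraries. Spred3, on chromosome 7 (29157783 to 29170070), had a region called in all 4 libraries only 1.43 kb beyond its gene end, assigned to Fam98c, and 10 regions within 200 kb. Of all 21887 protein-coding genes in the annotation, 48.8% had a region by the same rule.

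**Figure D3:**
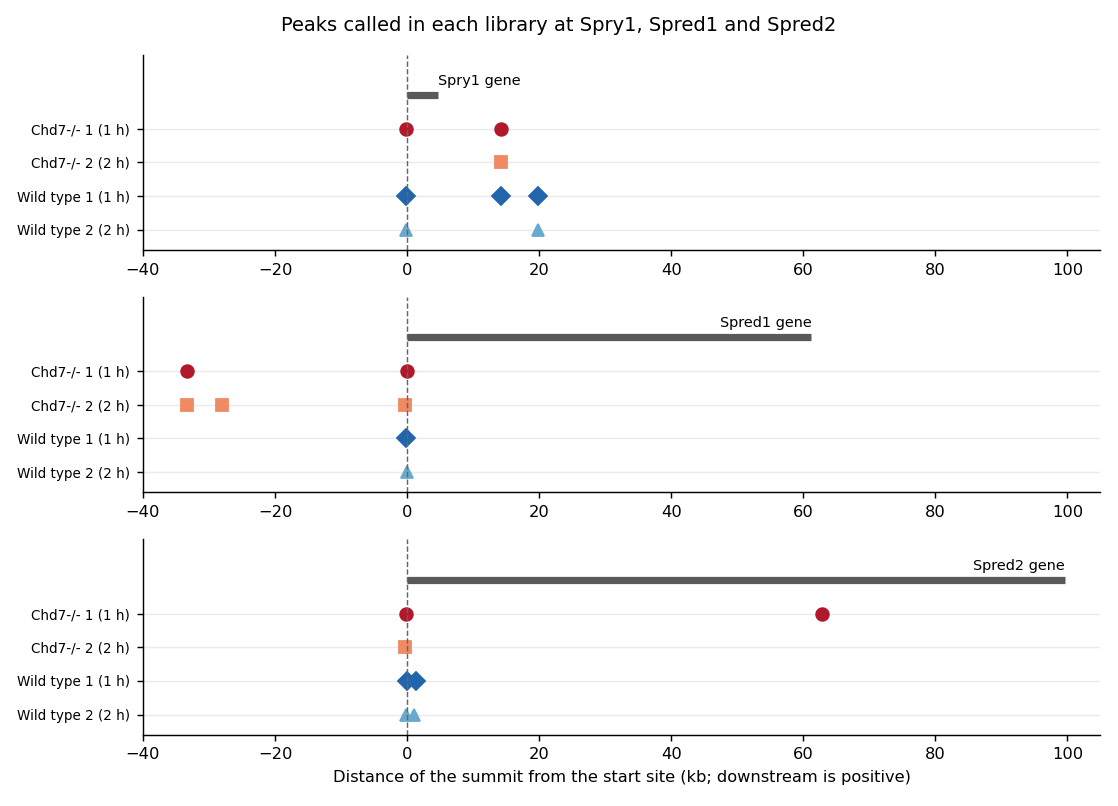
Summits of called peaks at Spry1, Spred1 and Spred2 by distance from the start site in kb, with the gene span as a grey bar, for the 4 libraries. Both regions upstream of Spred1 have calls in Chd7-/- libraries alone, and the region 19.8 kb downstream of the Spry1 start site in wild-type libraries alone.

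In calls over the 9 regions, 1 was exclusive to the Chd7-/- libraries and 2 to the wild-type libraries, where exclusive means called in both libraries of a genotype and in neither of the other. Over all 15328 regions these patterns made up 2.71% and 2.25%, and since the same calls selected the genes nothing is read from the counts. Calls in all 4 libraries held for 2 of the 9 regions, against 56.8% of all regions. The exclusive regions that selected the genes could not be among them, so nothing is read from this share either. The remaining 4 were called in 3 libraries (2 regions) or in 1 library (2 regions). Per library, 6 and 5 of the 9 were called in Chd7-/- replicates 1 and 2, and 6 and 5 in wild-type replicates 1 and 2. At the 1 h label, 2 of the 9 were called in Chd7-/- but not in wild type and 2 in wild type but not in Chd7-/-, against 16.8% and 8.08% of all regions. At the 2 h label these numbers were 3 and 3, against 9.60% and 14.0% of all regions. The counts at both labels include the exclusive regions that selected the genes, and nothing is read from them.

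A missing call sets a limit on the signal but does not measure it. At backgrounds within 10% of that of the upstream Spred1 region, the smallest pileup called was 6 fragments in wild-type replicate 1 and 7 in wild-type replicate 2, against the 9 fragments in each Chd7-/- library. For the downstream Spry1 region, the smallest pileup called at the lowest background was 6 in each Chd7-/- library, against 10 and 12 in the wild-type libraries. For the intragenic Spred2 region the wild-type backgrounds were 2.16 and 2.88 fragments in replicates 1 and 2, with a mean of 2.52. Within 10% of that mean, the smallest pileup called was 12 in each Chd7-/- library, against 15 in both wild-type libraries. This range holds neither wild-type background, and the background in the Chd7-/- libraries is unknown. A run of signal under 200 bp would also have gone uncalled, and which of these applied was not tested. Under a minimum −log10 q of 5 in every list, the exclusive calls at Spred1 and Spred2 were lost and the one at Spry1 stayed. The same held with lists of equal length.

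Levels at the shared promoters were compared on a log2 scale (pileup plus 1), after subtracting the median of each library, over the 8704 regions called in all 4 libraries with a recovered pileup. At Spred2 the centred log2 level averaged −0.12 ± 0.25 in Chd7-/- libraries and −0.52 ± 0.17 in wild-type libraries (SD, n = 2 each). The log2 difference was 0.40 with a standard error of 0.21, and it was 0.35 at the 1 h label and 0.46 at the 2 h label. Of all regions in the fit, 13.0% had a difference of larger size. At Spred1 the centred log2 level averaged −0.43 ± 0.10 in Chd7-/- libraries and −0.58 ± 0.04 in wild-type libraries (SD, n = 2 each), a log2 difference of 0.15 with a standard error of 0.18. The labelled times gave 0.19 at 1 h and 0.11 at 2 h, and 52.4% of regions had a larger difference. When libraries were scaled by their lowest background instead, the median difference over all regions in the fit was −0.21. The differences became 0.17 at Spred2 and −0.08 at Spred1, or 0.38 and 0.13 above that median. Over all regions limma called 0 of 8704 at an adjusted p of 0.05 (0.0%), with 758 at an unadjusted p below 0.05. Under the lowest-background scaling it called 70 (5 higher and 65 lower in Chd7-/-), and with a trended prior 17 (15 higher and 2 lower). Spry1 was not in the fit, since none of its 3 regions was called in all 4 libraries, and the other 4 genes had no region.

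**Figure D4:**
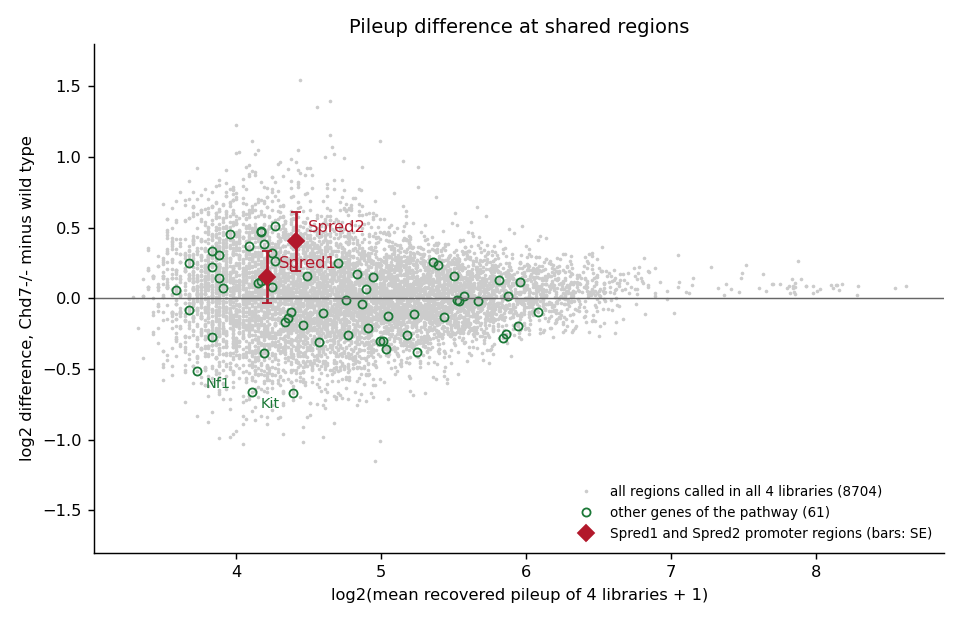
Log2 difference in median-centred pileup, Chd7-/- minus wild type (y axis), against log2 of the mean pileup plus 1 (x axis), for 8704 regions called in all 4 libraries. The Spred1 and Spred2 promoter regions (diamonds, bars are standard errors) lie at 0.15 and 0.40 among the spread of all regions. When scaled by lowest background, which is not drawn, these differences were −0.08 and 0.17. Open circles mark 61 regions of other pathway genes.

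The rest of the pathway was read from a list of 61 genes, from receptors to ERK-responsive transcription factors. Of these, 47 (77.0%) had a region, against 48.8% of all protein-coding genes. They held 86 regions, of which 61 (70.9%) were called in all 4 libraries, against 56.8% of all regions. All 10 adaptor and exchange factor genes had regions, as did 7 of 8 kinase and scaffold genes. Of the 15 other feedback genes 9 had regions, and those without were Dusp2, Dusp4, Dusp9, Dusp10, Il17rd and Errfi1. Exclusive regions numbered 0 for the knockout, against 2.71% of all regions, and 2 for wild type (2.33% of the 86), close to the 2.25% of all regions.

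The wild-type-only regions of that list were at Frs2 and Cish. At Frs2, the docking adaptor of fibroblast growth factor receptors on which Sprouty proteins act, chr10:117112578-117112927 inside the gene had no call in the Chd7-/- libraries, against 12 and 16 fragments in wild-type replicates 1 and 2. Frs2 also had 3 regions called in all 4 libraries. Near Cish, a feedback inhibitor of cytokine receptors, chr9:107312756-107313277 had no call in the Chd7-/- libraries, against 8 and 9 fragments in wild type.

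None of the 61 shared pathway regions passed (limma adjusted p of 0.387 or above), 30 being higher and 31 lower in Chd7-/- cells after median centring. Kit, the receptor of stem cell factor, had 2 regions. One inside the gene, chr5:75579741-75579940, was called in Chd7-/- replicate 1 alone, with 10 fragments. At the other, chr5:75574657-75575115, pileups were 14 and 10 fragments in Chd7-/- replicates 1 and 2, against 21 and 20 in wild-type replicates 1 and 2. The log2 difference was −0.66 with a standard error of 0.20 (limma adjusted p = 0.387), and it was −0.66 at both labelled times. At Nf1, whose product the Spred proteins carry to Ras, chr11:79339388-79339918 held 9 and 10 fragments in Chd7-/- libraries against 17 and 13 in wild-type libraries (log2 difference −0.52, standard error 0.23, limma adjusted p = 0.582). The Nf1 difference was −0.96 at 1 h and −0.07 at 2 h. An unadjusted p below 0.05 was reached by 4 of these 61 regions (6.56%), against 8.71% of all regions. Besides Kit they were at Csf2rb, Gab2 and Socs1, named here after their values were seen. The log2 differences, Chd7-/- minus wild type, were 0.47 at Csf2rb, 0.51 at 1 of 3 shared Gab2 regions and −0.67 at Socs1. With Kit, 2 of the 4 regions were higher and 2 lower in Chd7-/- cells. The Csf2rb region held 23 and 16 fragments in Chd7-/- libraries against 13 and 16 in wild-type libraries. This region of Gab2, an adaptor, was chr7:97183946-97184460, with 22 and 20 fragments in Chd7-/- libraries against 13 and 18 in wild-type libraries. The Gab2 region at a gene end, chr7:97081236-97082025, held 11 and 11 fragments against 11 and 14 (log2 difference −0.08). The third, chr7:97210005-97210477, held 22 and 9 fragments against 11 and 13 (log2 difference 0.31). At Socs1, an inhibitor of cytokine signalling, there were 14 and 15 fragments in Chd7-/- libraries against 21 and 30 in wild-type libraries.

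The gene whose strongest shared region most resembled the Spred2 promoter in level over the 4 libraries was Mpg, out of 7220 genes compared. The Euclidean distance over the 4 centred log2 pileups was 0.0641. Mpg, a DNA glycosylase gene, held 22 and 24 fragments in Chd7-/- libraries and 15 and 21 in wild-type libraries.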

How the data were processed

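ATAC-seq peak lists, 1 per library, were used from 2 Chd7-/- and 2 wild-type libraries grouped by their titles. Per the submitters' processing notes, Bowtie2 2.2.1 and MACS2 2.1.0 were used, and peak names in the files give GRCm38. For the calling threshold, control, read shift and duplicate handling: not given in the sources used here. The deposited score is 10 times the −log10 q, the deposited fold enrichment is a ratio of pileup plus 1 to background plus 1, and the deposited −log10 p and −log10 q are the caller's.

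From fold and −log10 p, the whole-number pileup and background at each summit were recovered for all but 1 peak per library (tolerance 0.001 in −log10 p). Where several solutions fitted (1 peak in Chd7-/- replicate 1 and 17 in wild-type replicate 1), those with a background below the list's commonest were dropped. The pileup is assumed not to have been rescaled by the caller. Nuclear peaks were merged, and 2 non-nuclear peaks per library were left out. A region's value in a library was its peak of highest fold.

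Genes came from the GRCm38.p6 RefSeq table and start sites from its promoter windows. Pileups were compared with limma 3.58.1 (R 4.3.3), with Benjamini-Hochberg adjustment over all regions called in all 4 libraries. Python 3.11.15 was used elsewhere. The recovery and the fit were tested on simulated data. The genes, lists and tests were chosen with earlier results of these data known. Named are the 7 genes with every region, and of the pathway list those with exclusive regions, those past the threshold (0 genes), and Kit and Nf1. Feedback genes without a region, and 3 genes at an unadjusted p below 0.05, were named outside this rule after their values were seen. A further gene of this rule and the gene most like Spred1 are not reported here. P-values measure the spread between libraries, which may be technical. Depth was unknown, so no counting interval is given.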

Additional observations from a re-analysis of the deposited data

How the results depend on the processing

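The 9 regions stayed 9 with links within 50 kb, lists of equal length and 250 bp windows, became 8 at −log10 q of at least 5, 5 with gene spans alone, and 12 with 75 bp windows, a setting chosen after seeing the data. The single knockout-only region, at Spred1, was lost (0) under spans alone, −log10 q of at least 5 and equal lists. The 2 wild-type-only regions became 1 under spans alone (Spred2), and under −log10 q of at least 5, equal lists and 75 bp windows (Spry1). With each library left out in turn there were 1 to 2 knockout-only and 2 to 3 wild-type-only regions. Fewer calls in one genotype, or fewer absences in the other, are then required. Over all regions these settings gave 4.31% to 11.4% knockout-only and 4.22% to 8.30% wild-type-only, against 2.71% and 2.25% with all 4 libraries. Without Chd7-/- replicate 1 the second upstream Spred1 region became knockout-only and the Spry1 promoter wild-type-only. Without Chd7-/- replicate 2 the distal Spred2 region, and without wild-type replicate 1 the Spry1 region 14.2 kb downstream, became knockout-only.

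The limma count of 0 over all regions became 2 with the replicate block, 17 with a trended prior (15 higher and 2 lower in Chd7-/-) and 70 when scaled by lowest background (5 higher and 65 lower). It stayed 0 in the other settings, leaving out each library included. The same-numbered libraries share a labelled time, but their deviations were uncorrelated over regions (r = 0.00217). With each library left out in turn, the log2 difference ranged from 0.23 (without Chd7-/- replicate 2) to 0.58 (without Chd7-/- replicate 1) at Spred2 and from 0.09 to 0.22 at Spred1. Scaling by lowest background gave 0.17 at Spred2 and −0.08 at Spred1. A mean pileup of at least 20 left no value for Spred1. The cause of these changes was not tested. Of the 9 regions, 7 had 15 fragments or fewer where called, and the read depth of the libraries is unknown.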
